A study of Mus musculus with 9 samples.

Results

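The cytosolic ribosomal protein genes were 94 of the 54532 genes in the deposited table, of which 22046 were protein-coding. A gene was taken when it was protein-coding and its symbol was Rpl or Rps followed by a digit, or was Rplp0, Rplp1, Rplp2 or Rpsa, and the S6 kinases (Rps6k) were left out. By name, 59 belonged to the large subunit and 35 to the small subunit. The rule used names alone, so it also took 8 genes with pseudogene names that are annotated as protein-coding, the retrogene Rps27rt, and Rps19bp1, which encodes a binding partner of a ribosomal protein and not a part of the ribosome. It left out genes that encode ribosomal proteins under other names, such as Fau and Rack1, which are counted with the translation genes.

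Total RNA of primary mouse hepatocytes, freshly isolated liver parenchymal cells in culture, gave 9 libraries in 3 groups of 3. All mice were of C57BL/6 background and carried floxed COX-2 alleles (COX-2 fl/fl), and the labels describe them as male. The CKO Tu group came from mice that also carried Alb-Cre, a recombinase driven by the albumin promoter, which deletes COX-2 in hepatocytes, and its cells received 6 μmol/L tunicamycin for 24 hours. The WT Tu group came from age-matched Cre-negative littermates and received the same dose for the same time. The WT DMSO group came from the Cre-negative mice and received the vehicle DMSO for 24 hours. All cells were first kept in 1% serum for 2 hours. No group of CKO cells with DMSO was analysed here, so an effect of the deletion without tunicamycin cannot be given. Nothing in the labels ties the 3 libraries of a group to different mice, and p-values here reflect only how far those libraries differ from each other, which may be technical.

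Ribosomes join amino acids into protein, and each consists of a small subunit that reads the mRNA and a large subunit that forms peptide bonds. Their proteins are made from very abundant mRNAs that mostly start with a run of pyrimidines, called a 5′ terminal oligopyrimidine (TOP) tract, through which mTOR signalling and LARP1 control their translation. Tunicamycin blocks N-glycosylation and lets misfolded proteins pile up in the endoplasmic reticulum (ER), and in this ER stress translation is held back while free ribosomal proteins such as those of the 5S particle can bind MDM2, the inhibitor of p53.

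Promoters of 66 of the 94 genes were found in the RefSeq table of 250 bases before to 50 bases after each gene's start on GRCm38.p6. The letters CTTTCC, a run that starts many TOP mRNAs, stood on the gene's own strand in 27 of 66 promoters (40.9%), against 16.01% of 27025 genes. Within 20 bases of the start on either side it was found in 12 of the 66 (18.2%), against 2.30% of all genes. The letters CTTCCG, the core bound by ETS factors, stood on either strand in 44 of 66 (66.7%), against 18.8% of all genes, and a match of either motif can share at most 1 base with a match of the other. Among the genes that were lower in CKO Tu than in WT Tu, 6 of 22 promoters held CTTTCC (27.3%), and among the other members 21 of 44 did (47.7%). The stretches below run from 40 bases before to 30 bases after the RefSeq start, 5′ to 3′ on the gene's strand. They are shown because Rpl10a, Rpl18 and Rpl4 were lower in CKO Tu and hold CTTTCC in this stretch, Rps27 holds it close to its start without passing the test, and Rpl36al and Rpl22l1 are the members whose CKO Tu libraries all lay above the WT Tu libraries. Capitals mark CTTTCC, or CTTCCG in Rpl36al, and in Rpl22l1 neither was present. The regions are chr17:28328525-28328594 on the plus strand for Rpl10a, chr7:45718031-45718100 on the plus strand for Rpl18, chr9:64173347-64173416 on the plus strand for Rpl4, chr3:90213619-90213688 on the minus strand for Rps27, chr12:69184038-69184107 on the minus strand for Rpl36al and chr3:28805468-28805537 on the plus strand for Rpl22l1. The RefSeq start may differ from the first base of the deposited gene model, and a match is a run of letters and not a measured binding site.
Rpl10a: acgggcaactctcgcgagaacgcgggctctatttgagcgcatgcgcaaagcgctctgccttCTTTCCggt
Rpl18: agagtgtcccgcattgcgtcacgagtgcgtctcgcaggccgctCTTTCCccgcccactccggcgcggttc
Rpl4: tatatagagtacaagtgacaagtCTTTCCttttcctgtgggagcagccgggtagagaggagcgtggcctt
Rps27: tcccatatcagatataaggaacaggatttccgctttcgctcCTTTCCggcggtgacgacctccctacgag
Rpl36al: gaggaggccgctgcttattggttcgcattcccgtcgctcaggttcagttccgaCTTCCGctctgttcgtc
Rpl22l1: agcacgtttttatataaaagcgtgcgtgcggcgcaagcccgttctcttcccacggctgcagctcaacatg

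Before the values, 3 facts of the libraries bear on them. Each library held 14897358 to 16001484 assigned fragments. Xist, which female cells transcribe from the inactive X chromosome, had 0, 3 and 0 fragments in CKO Tu and 20659 to 33657 in each of the 6 WT libraries, while 4 Y-linked genes had 3633, 3489 and 3486 fragments in CKO Tu and 0 in all 6 WT libraries. The WT libraries therefore went against the label male, and genotype and sex-linked transcription cannot be told apart in any comparison of CKO Tu with a WT group. Ptgs2, the COX-2 gene, had 1, 1 and 2 fragments in CKO Tu, against 8, 5 and 5 in WT Tu (two-sided exact permutation test, p = 0.1, which is the least possible with 3 libraries a group), and 0, 13 and 8 in WT DMSO. WT Tu replicate 1 lay away from replicates 2 and 3, at -36.6 against -19.6 for both on the second principal component of all tested genes. Counts of members called, and values of some genes, are given with and without it. Other values include it.

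Markers of other cell types summed to far less than the hepatocyte markers, and several sums differed between groups. Summed over 10 endothelial markers, levels were 4.90 to 5.12 FPKM in CKO Tu, 5.83 to 7.07 FPKM in WT Tu and 13.0 to 13.4 FPKM in WT DMSO, with none of them at 0 in a whole group. Summed over 11 hepatocyte markers, levels were 14721 to 15679 FPKM in CKO Tu, 16595 to 18087 FPKM in WT Tu and 16706 to 18575 FPKM in WT DMSO. The 10 Kupffer cell markers summed to 92.7 to 107 FPKM in CKO Tu, 96.9 to 115 FPKM in WT Tu and 75.3 to 93.0 FPKM in WT DMSO. Only 2 of these 10 reached an FPKM of 1 in 3 or more libraries. Adgre1, Clec4f, Timd4, Marco, Cd5l and Vsig4 were at 0 in CKO Tu, Cd5l, Marco and Vsig4 in WT Tu, and Vsig4 in WT DMSO. The 8 cholangiocyte markers summed to 35.9 to 39.6 FPKM in CKO Tu, 24.0 to 25.6 FPKM in WT Tu and 24.6 to 27.9 FPKM in WT DMSO, and the 10 stellate cell markers to at most 7.25 FPKM in any library, with Col1a1 and Hand2 at 0 in CKO Tu, Hand2 in WT Tu and Lrat in WT DMSO. The 10 lymphocyte and neutrophil markers summed to 3.03 to 4.58 FPKM in CKO Tu, 4.88 to 6.48 FPKM in WT Tu and 1.47 to 1.91 FPKM in WT DMSO, without overlap between groups, and S100a8, S100a9, Nkg7 and Cd3g were at 0 in CKO Tu and Nkg7 in WT Tu. The part of these cells in the levels of ribosomal protein genes was not tested. In bulk RNA, fewer cells of a type and less RNA per cell cannot be told apart.

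Ribosomal protein mRNA made up a smaller share of the RNA in CKO Tu than in either WT group. The 94 genes held 2.82%, 2.94% and 3.04% of fragments in the CKO Tu libraries, against 3.18%, 3.32% and 3.26% in WT Tu and 3.61%, 3.46% and 3.53% in WT DMSO. The 3 groups did not overlap, and WT Tu lay between the others. Summed as FPKM, fragments per kilobase of gene scaled to a library size that the authors had adjusted, the genes came to 17214, 18016 and 18432 in CKO Tu, 19437, 20475 and 20344 in WT Tu, and 20680, 20025 and 20510 in WT DMSO. On that scale CKO Tu stayed below both WT groups, while WT Tu and WT DMSO overlapped. Values below are on this deposited scale. The library size behind the deposited FPKM was 1.01, 1.00 and 1.01 times the total fragments in CKO Tu, 0.948, 0.984 and 0.975 times in WT Tu and 1.07, 1.06 and 1.06 times in WT DMSO, so the distance between the WT groups depends on that adjustment.

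**Figure D1:**
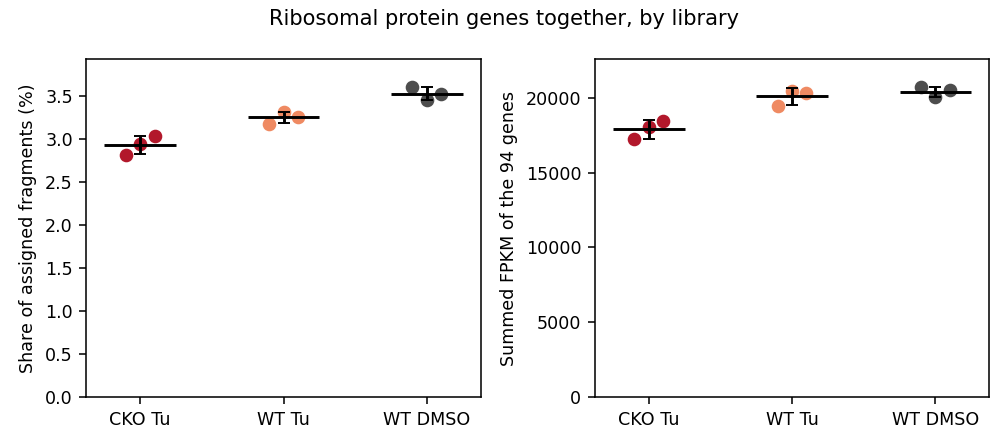
Share of assigned fragments in percent (left) and summed FPKM (right) of the 94 ribosomal protein genes in CKO Tu, WT Tu and WT DMSO, with a point per library, the mean as a line and the SD as a bar (n = 3 each). Every CKO Tu library lies below every WT library in both panels, and the 2 WT groups overlap only as FPKM.

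Of the 94 members, 87 passed the filter on low values, an FPKM of 1 or more in 3 or more libraries, and were tested. The median level of these 87 was 185 FPKM, against 6.55 FPKM over the 11858 genes tested, and 12 of them were among the 100 genes with the highest mean level. Rplp1, which encodes a stalk protein, was the highest at 1418 FPKM over all 9 libraries, followed by Rplp0 at 793, Rps3a1 at 706, Rpl36 at 608 and Rpl4 at 561 FPKM. The 7 that were not tested were Rpl3l, Rpl10l and Rpl39l, which are paralogues used in muscle or testis, and Rpl9-ps1, Rpl13a-ps1, Rpl36-ps4 and Rpl36a-ps1. Among them Rpl3l had 6, 2 and 14 fragments over the 3 libraries of CKO Tu, WT Tu and WT DMSO, Rpl36a-ps1 had 11, 9 and 11, and each of the others had at most 1 in a group. A few universal subunits were listed very low, Rpl24 at 2.80 FPKM and Rps10 at 3.46 FPKM over all libraries. Of the exon bases of Rpl24, 47.0% lay under exons of Gm28037 on the same strand. For Rps10, 20.6% lay under other genes on the same strand and 8.18% on the opposite strand. The genes over Rps10 were the readthrough gene RPS10-NUDT3 and Gm15420. How the authors' counting treated fragments in overlapping genes is not given in the sources used here, so these levels are uncertain.

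Whether ER stress was equal in the tunicamycin-treated cells of both genotypes was not tested, and only dose and time were the same. Genotype and sex-linked transcription cannot be told apart in this comparison. In it 29 of 87 ribosomal protein genes fell, where 19.6% of all genes tested were lower, and 0 of 87 rose, where 18.7% of all genes were higher (limma adjusted p below 0.05 over 11858 genes, with 38.3% of them called in either direction). By sign, 68 of 87 were lower. Their median change was -0.16 on the log2 scale, against -0.00 for all genes, so most changes were small, and 0 of 87 passed a change of 1 on the log2 scale, which 4.09% of all genes did. At an unadjusted p below 0.05, 1 member was higher, and voom on recovered fragments called 1 higher, Rpl22l1. Both subunits took part, with 15 of 52 large subunit genes and 14 of 35 small subunit genes lower. Without WT Tu replicate 1, 49 of 87 fell, where 21.2% of all genes were lower, and 0 rose, where 20% were higher, and 28 of the 29 were among the 49. In 43 members the CKO Tu libraries all lay below the WT Tu libraries (26.2% of all genes), and in 2, Rpl22l1 and Rpl36al, all lay above (25% of all genes). The count lower was 22 to 43 under the other settings that kept all libraries, where 6.93% to 25.6% of all genes were lower. Of the 29, 21 kept their call in all 22 alternatives.

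**Figure D2:**
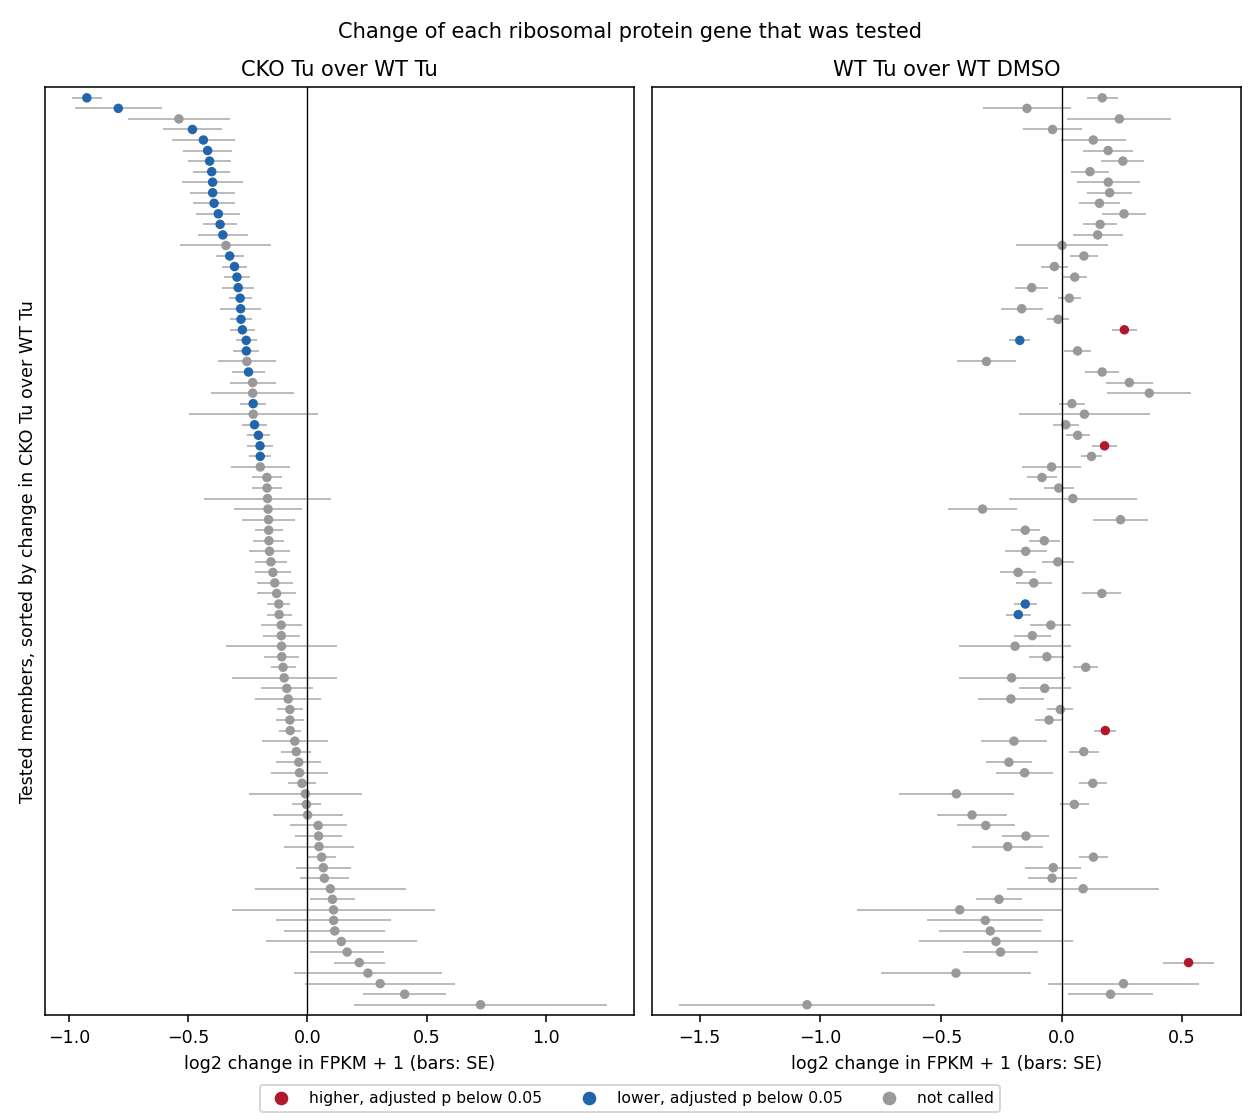
Change in log2(FPKM + 1) of each of the 87 tested ribosomal protein genes in CKO Tu over WT Tu (left) and WT Tu over WT DMSO (right), with the limma SE as a bar, sorted by the left panel. On the left the blue points, 29 genes called lower, lie in the upper part and no gene is called higher, while on the right 4 are called higher and 3 lower.

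Rpl3, a core protein of the large subunit that reaches towards the site of peptide bond formation, fell the most. It lies on chromosome 15 (ENSMUSG00000060036, 80077791 to 80091868, mm10). It had 129, 144 and 147 FPKM in CKO Tu, against 282, 263 and 255 FPKM in WT Tu, and 237, 239 and 235 FPKM in WT DMSO. CKO Tu was far below both WT groups, and its level was 0.527 of that in WT Tu. The log2 change was -0.93 ± 0.06 (SE, limma adjusted p = 1.6e-05), it was -0.88 without WT Tu replicate 1, and it stayed between -0.96 and -0.83 in all 22 alternatives. Of the 50-base windows of the Rpl3 transcript, 81.5% also occur in the processed copy Rpl3-ps1 on the X chromosome, which was at 23.3, 23.2 and 21.5 FPKM in CKO Tu, against 47.8, 39.4 and 39.9 FPKM in WT Tu. The copy was lower as well, and the sum of both was 152 to 169 FPKM in CKO Tu, against 295 to 330 FPKM in WT Tu. The muscle paralogue Rpl3l stayed at 6 fragments in CKO Tu and 2 in WT Tu.

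Rpl9-ps6 was next. It is annotated as protein-coding on chromosome 19, shares 89.2% of its windows with Rpl9, and had 11.7, 19.0 and 19.9 FPKM in CKO Tu, against 33.9, 24.8 and 29.9 FPKM in WT Tu and 33.9, 32.2 and 31.4 FPKM in WT DMSO. CKO Tu lay below both WT groups without overlap, while the WT groups overlapped (log2 change -0.79 ± 0.18 for CKO Tu over WT Tu, SE, limma adjusted p = 0.0089). Rpl9 itself had 108, 115 and 117 FPKM in CKO Tu, against 146, 137 and 137 FPKM in WT Tu (log2 change -0.31 ± 0.05, SE, limma adjusted p = 0.0025). Both were lower in every CKO Tu library, and fragments cannot be assigned to one copy with certainty.

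The stalk of the large subunit, which recruits the GTPases that drive translation, is built on Rplp0 with dimers of Rplp1 and Rplp2. Rplp2 had 109, 109 and 108 FPKM in CKO Tu, against 189, 145 and 129 FPKM in WT Tu, and 147, 155 and 167 FPKM in WT DMSO. The CKO Tu libraries were tightly grouped and below all others, while WT Tu was spread out (log2 change -0.48 ± 0.12, SE, limma adjusted p = 0.014, and -0.33 with adjusted p = 0.0057 without WT Tu replicate 1). Rplp0 had 724, 742 and 751 FPKM in CKO Tu, against 940, 873 and 869 FPKM in WT Tu, and 758, 742 and 736 FPKM in WT DMSO. It was thus highest in WT Tu, with CKO Tu and WT DMSO overlapping, at -0.27 ± 0.05 on the log2 scale for CKO Tu over WT Tu (SE, limma adjusted p = 0.0034). Rplp1 had 1285, 1349 and 1389 FPKM in CKO Tu, against 1101, 1513 and 1549 FPKM in WT Tu, and did not pass (log2 change -0.03 ± 0.12, SE, limma adjusted p = 0.85). Its low WT Tu value is that of replicate 1, and without that library Rplp1 was lower in CKO Tu as well (log2 change -0.19, limma adjusted p = 0.014).

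Rpl5 and Rpl11 form the 5S particle with 5S rRNA, and outside the ribosome they bind MDM2. Rpl5 had 137, 144 and 156 FPKM in CKO Tu, against 180, 186 and 181 FPKM in WT Tu and 176, 163 and 175 FPKM in WT DMSO. It fell by 0.33 ± 0.06 on the log2 scale (SE, limma adjusted p = 0.0028). Rpl11 had 136, 148 and 145 FPKM in CKO Tu, against 86.1, 166 and 159 FPKM in WT Tu and 161, 158 and 167 FPKM in WT DMSO. Replicate 1 of WT Tu was far below all 8 other libraries, and it set the sign, with a log2 change of 0.11 ± 0.21 with it (SE, limma adjusted p = 0.7) and -0.19 without it (limma adjusted p = 0.017).

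Other proteins of the large subunit fell by less. Rpl26, which sits at the peptide exit tunnel and is the acceptor of the ubiquitin-like modifier UFM1 on ER-bound ribosomes, had 256, 261 and 271 FPKM in CKO Tu, against 407, 310 and 337 FPKM in WT Tu and 291, 295 and 292 FPKM in WT DMSO. All CKO Tu libraries were below all others (log2 change -0.41 ± 0.09, SE, limma adjusted p = 0.0068). Rpl27, another protein near the exit tunnel, had 187, 200 and 199 FPKM in CKO Tu, against 340, 240 and 227 FPKM in WT Tu (log2 change -0.44 ± 0.13, SE, limma adjusted p = 0.031). The Rpl27 call was lost without CKO Tu replicate 1, 2 or 3, with limma adjusted p of 0.093, 0.066 and 0.067. Rpl4, which lines the same tunnel, had 486, 514 and 513 FPKM in CKO Tu, against 638, 590 and 580 FPKM in WT Tu (log2 change -0.26 ± 0.05, SE, limma adjusted p = 0.0063). Rpl10a, the protein of the L1 stalk near which the empty tRNA leaves, had 203, 216 and 212 FPKM in CKO Tu, against 241, 238 and 245 FPKM in WT Tu, which do not overlap (log2 change -0.20 ± 0.05, SE, limma adjusted p = 0.0087). Rpl7 and its paralogue Rpl7l1 fell by 0.37 and 0.28 on the log2 scale (limma adjusted p = 0.0039 and 0.0015). Rpl38, through which certain Hox mRNAs are translated in mouse embryos, and Rpl13a, which silences inflammatory mRNAs in human myeloid cells, did not pass, with log2 changes of 0.05 ± 0.15 and 0.07 ± 0.12 (SE, limma adjusted p = 0.82 and 0.68). For Rpl13a, 35.4% of exon bases lay under other genes on the same strand.

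In the small subunit, Rps6, the substrate of the S6 kinases, had 382, 385 and 398 FPKM in CKO Tu, against 594, 467 and 477 FPKM in WT Tu and 462, 451 and 458 FPKM in WT DMSO. The CKO Tu libraries were the lowest 3 of the 9 (log2 change -0.39 ± 0.09, SE, limma adjusted p = 0.0074). Rps3, at the mRNA entry site, fell by 0.23 ± 0.05, and Rps3a1, the most abundant small subunit mRNA here, fell by 0.21 ± 0.05 on the log2 scale (SE, limma adjusted p = 0.0095 and 0.011). Quantile normalization ended the call of Rps3, and leaving out CKO Tu replicate 2 that of Rps3a1 (limma adjusted p = 0.14 and 0.051). Rpsa, also known as a receptor for laminin, had 302, 313 and 317 FPKM in CKO Tu, against 483, 363 and 359 FPKM in WT Tu (log2 change -0.35 ± 0.10, SE, limma adjusted p = 0.026). This Rpsa call was lost without CKO Tu replicate 1, 2 or 3 (limma adjusted p = 0.08, 0.064 and 0.057). Rps19, mutated in some patients with Diamond-Blackfan anaemia, had 56.7, 57.1 and 56.7 FPKM in CKO Tu, against 63.6, 62.6 and 59.2 FPKM in WT Tu, without overlap but not past the threshold (log2 change -0.12 ± 0.05, SE, limma adjusted p = 0.11). Rps10 and Rps20, which ZNF598 ubiquitinates on collided ribosomes, did not pass either, at 0.07 ± 0.10 and -0.07 ± 0.06 on the log2 scale (SE, limma adjusted p = 0.62 and 0.37). Rps19bp1, the binding partner of Rps19 that is no ribosomal protein, had 35.3, 33.2 and 30.7 FPKM in CKO Tu, against 52.1, 43.3 and 38.9 FPKM in WT Tu (log2 change -0.42 ± 0.10, SE, limma adjusted p = 0.013), so 27 of the 29 genes that fell were neither this gene nor one with a pseudogene name.

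**Figure D3:**
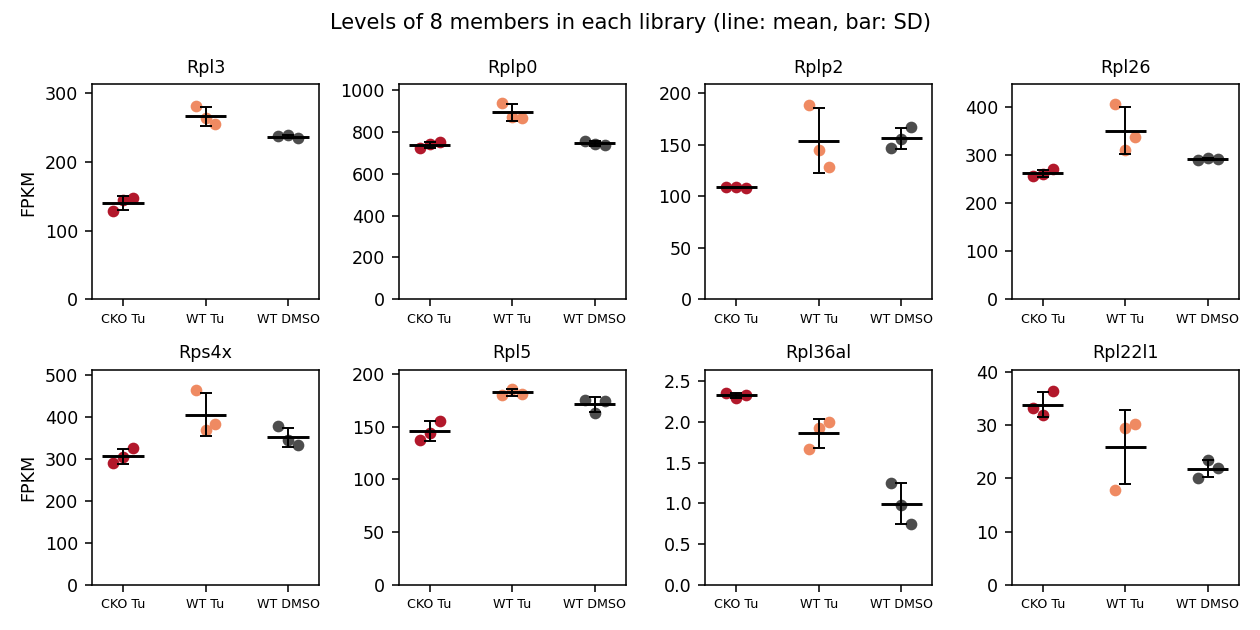
FPKM of 8 ribosomal protein genes in each library of CKO Tu, WT Tu and WT DMSO, with the mean as a line and the SD as a bar (n = 3 each) and linear axes from 0. Rpl3 stands at 129 to 147 FPKM in CKO Tu, below every WT library, while Rpl36al and Rpl22l1 have their 3 highest libraries in CKO Tu.

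Of the 4 X-linked members, 1 was called in CKO Tu over WT Tu, where 38.3% of all genes were called in either direction. These groups also differed in Xist and Y-linked transcripts, and the part of that in X-linked values was not tested. Rps4x had 289, 304 and 326 FPKM in CKO Tu, against 465, 369 and 383 FPKM in WT Tu (log2 change -0.40 ± 0.09, SE, limma adjusted p = 0.01). Rpl10 had 357, 344 and 361 FPKM in CKO Tu, against 490, 357 and 356 FPKM in WT Tu, and overlapped. Rpl39 was nearly level, at 113, 121 and 124 FPKM in CKO Tu, against 119, 117 and 122 FPKM in WT Tu. Rpl36a had 54.4, 58.9 and 59.1 FPKM in CKO Tu, against 43.2, 65.0 and 67.3 FPKM in WT Tu, where replicate 1 of WT Tu was the lowest of all (log2 change 0.00 ± 0.15 with it and -0.20 without it, limma adjusted p = 0.997 and 0.023).

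Tunicamycin against vehicle in Cre-negative cells asks what the drug does where COX-2 was not deleted. As deposited, 4 of 87 ribosomal protein genes rose, where 17.7% of all genes tested were higher, and 3 of 87 fell, where 15.9% were lower and 33.6% were called in either direction, but under total-fragment scaling the counts were 1 and 19, where 12.1% and 26.2% of all genes were called. They were 2 and 17 under quantile normalization, where 16.0% and 18.2% were called, and 2 and 10 under upper-quartile scaling, where 14.7% and 20% were called, so the counts lower were near or below those of all genes. The median change of the members was -0.02 on the log2 scale, against -0.00 for all genes. Scaling to total fragments moved the median of all genes to -0.11 and that of the members to -0.14, so that relative to all genes the members stayed close to 0, and it gave 1430 genes higher and 3108 lower over all genes, beside 2099 and 1882 as deposited. The groups did not overlap in 17 members that were higher (23.9% of all genes) and 12 that were lower (22.8% of all genes). Without WT Tu replicate 1, 10 rose and 7 fell, where 17.6% and 14.9% of all genes were called.

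Rplp0, described above, rose by 0.26 ± 0.05 on the log2 scale in WT Tu over WT DMSO (SE, limma adjusted p = 0.0048), although under total-fragment scaling it did not pass (limma adjusted p = 0.065). In CKO Tu over WT Tu it fell, so it was called in opposite directions in these comparisons, which share the WT Tu libraries.

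The members that fell included Rps19 and Rpl22. Rps19 had 63.6, 62.6 and 59.2 FPKM in WT Tu, against 74.0, 67.7 and 68.7 FPKM in WT DMSO (log2 change -0.18 ± 0.05, SE, limma adjusted p = 0.028). Rpl22 had 68.0, 72.4 and 67.1 FPKM in WT Tu, against 77.3, 75.5 and 77.7 FPKM in WT DMSO (log2 change -0.15 ± 0.05, SE, limma adjusted p = 0.042). Both were lower in every WT Tu library, but Rps19 lost its call without WT DMSO replicate 1 or 3, WT Tu replicate 2 or 3 or CKO Tu replicate 2 (limma adjusted p of 0.05 to 0.083) and with the GC trend removed (limma adjusted p = 0.58), and Rpl22 without any of 7 libraries (0.06 to 0.12).

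Some members have a paralogue that can take their place in the ribosome. Rpl22l1, a paralogue that Rpl22 represses in mouse, had 33.3, 31.9 and 36.4 FPKM in CKO Tu, 17.9, 29.5 and 30.3 FPKM in WT Tu, and 20.2, 23.4 and 21.9 FPKM in WT DMSO. Its ratio to Rpl22 was 0.538, 0.499 and 0.561 in CKO Tu, 0.263, 0.407 and 0.452 in WT Tu, and 0.261, 0.310 and 0.282 in WT DMSO. CKO Tu had the 3 highest ratios, and replicate 1 of WT Tu lay with WT DMSO. For CKO Tu over WT Tu the Rpl22l1 change did not pass (0.41 ± 0.17 on the log2 scale, SE, limma adjusted p = 0.097), nor did that for WT Tu over WT DMSO (0.20 ± 0.17, SE, limma adjusted p = 0.41), which did pass without WT Tu replicate 1 (0.44, limma adjusted p = 0.0031). For CKO Tu over WT DMSO it was 0.61 ± 0.17 (SE, limma adjusted p = 0.017).

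Rpl36al, a paralogue of the X-linked Rpl36a, was 1 of the lowest members. It had 1.66, 1.93 and 2.00 FPKM in WT Tu, against 1.25, 0.986 and 0.749 FPKM in WT DMSO, and 2.36, 2.29 and 2.33 FPKM in CKO Tu. These were 146 fragments over the CKO Tu libraries, 113 over WT Tu and 65 over WT DMSO. Groups did not overlap, and WT Tu over WT DMSO changed by 0.53 ± 0.11 on the log2(FPKM + 1) scale (SE, limma adjusted p = 0.0056), which understates changes of low genes. It passed the filter on low values mainly through the tunicamycin groups, and 24.5% of its exon bases lay under Gm49383 on the same strand. Its ratio to Rpl36a averaged 0.0405 in CKO Tu, 0.0326 in WT Tu and 0.0133 in WT DMSO. Of the windows of Rpl36a, 62.7% also occur in Rpl36a-ps2. Over all libraries that copy was at 41.1 FPKM beside Rpl36a at 63.5 FPKM, so the ratio is uncertain.

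The other pairs moved less. Rps27l, a p53 target, was listed higher per length than Rps27 alone, with a mean ratio of 1.76 in CKO Tu, 1.64 in WT Tu and 1.94 in WT DMSO, and in WT DMSO the ratio varied between 1.39 and 2.52. Rps27 itself had 109, 144 and 82.0 FPKM in WT DMSO. Of its windows, 98.6% also occur in Rps27rt, which had 212, 89.5 and 254 FPKM there. The sum of Rps27 and Rps27rt was 233 to 336 FPKM over all libraries. It lay above Rps27l, at 197 to 261 FPKM, in each library. Fragments cannot be assigned to Rps27 or Rps27rt with certainty, so the ratio is uncertain. Rpl7l1 stood at 0.202, 0.191 and 0.215 of Rpl7 in CKO Tu, WT Tu and WT DMSO. Rpl10l had 0 fragments in all 9 libraries and Rpl39l had 1, in WT Tu.

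The comparison of CKO Tu with WT DMSO differs in genotype and treatment at once and shares libraries with both others. In it 30 of 87 members were lower (24.2% of all genes) and 3 higher (25.3% of all genes), Rpl22l1, Rpl34 and Rpl36al, with a median change of -0.20 on the log2 scale. Without WT Tu replicate 1, which is in neither group but enters the shared fit and filter, 54 were lower (28.1% of all genes) and 5 higher (28.6% of all genes). The groups did not overlap in 57 members that were lower (31.3% of all genes) and 6 that were higher (31.8% of all genes). Rpl3 was at -0.76 ± 0.06, Rplp2 at -0.52 ± 0.12 and Rps19 at -0.30 ± 0.05 (SE, limma adjusted p = 2e-05, 0.007 and 0.0014). Rplp0 was at -0.01 ± 0.05 (SE, limma adjusted p = 0.87).

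WT Tu replicate 1 was the library in which members were most often extreme. It was the highest of the 9 libraries for 27 members and the lowest for 25, against 21.2% and 19.0% of all genes tested. Rpl23a, where the nascent chain leaves the ribosome, had 39.2 FPKM in that library, against 203 FPKM in both other WT Tu libraries, and 240 to 251 FPKM in WT DMSO. Rpl28 had 79.2 FPKM in it, against 201 and 210 FPKM in the others, while Rps12 had 260 FPKM in it, against 136 and 137 FPKM. Rps12-ps3, which holds all of its windows also in Rps12, went the other way, at 128 FPKM in WT Tu replicate 1, against 225 and 254 FPKM, and the sum of Rps12 and Rps12-ps3 was 388, 360 and 391 FPKM in the 3 WT Tu libraries. The sum was therefore level where each copy was not. Of the exon bases of Rpl23a, 59.7% lay under Tlcd1 on the opposite strand, and the strand setting of the counting is not given in the sources used here.

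Over the 87 members, the deviation of that library from the mean of replicates 2 and 3 had a Spearman correlation of 0.224 with gene length and -0.141 with GC content, as a description across genes of the same libraries, against 0.196 and -0.481 over all genes with a value. Mitochondrial genes held 6.87% of its fragments, while replicates 2 and 3 of WT Tu had 5.25% and 5.90%. The part of these in the members' values was not tested. The median over members of SD divided by mean was 4.32% in CKO Tu, 10.8% in WT Tu and 3.92% in WT DMSO. CKO Tu replicate 1 was the lowest of the 9 libraries for 42 members, against 13.0% of all genes tested.

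**Figure D4:**
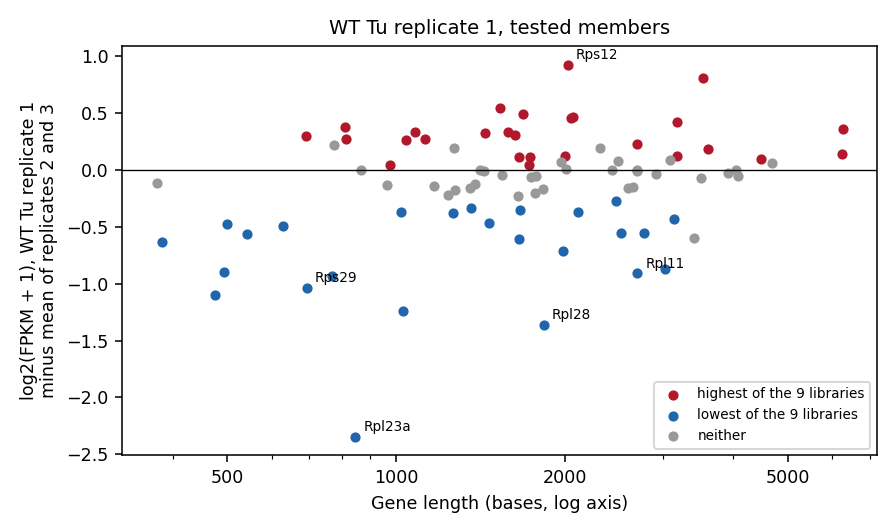
Deviation of WT Tu replicate 1 from the mean of WT Tu replicates 2 and 3 in log2(FPKM + 1) against gene length in bases on a log axis, with a point for each of the 87 tested members. Red points, 27 members, have their highest value of all 9 libraries in this library, and blue points, 25 members, their lowest, with Rpl23a at the bottom.

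Ribosomal protein genes have many processed copies, so shared sequence was counted. Of 92 members with a transcript in the reference, 52 had at least 50% of their 50-base windows in transcripts of other genes, and 5 had none. Among tested members with at least 50% shared, 17 of 51 fell in CKO Tu over WT Tu, with a median log2 change of -0.16, and among those under 50%, 12 of 35 fell, with a median of -0.15. The median change was nearly the same in both. Fragments of 297 pseudogenes that carry a ribosomal protein name came to 3.29% to 4.03% of the members' fragments in each library. Genes with other names that share windows were not in this sum, and their levels varied widely. Gm9794 was at 237 FPKM beside Rpl23 at 185 FPKM, and Gm10443 at 181 FPKM beside Rps28 at 51.0 FPKM. Gm13611 was at 3.18 FPKM beside Rpl36 at 608 FPKM. Exons of other genes lay over 28 members on the same strand and over 19 on the opposite strand.

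Ribosomes are built in the nucleolus by assembly factors, and genes of these factors also fell in CKO Tu. Of 52 assembly factors tested, 25 were lower and 2 higher in CKO Tu over WT Tu, with a median log2 change of -0.23, against 19.6% and 18.7% of all genes. Nop56, a core protein of the box C/D particles that methylate rRNA, had 69.7, 69.2 and 71.0 FPKM in CKO Tu, against 103, 100 and 106 FPKM in WT Tu and 137, 139 and 139 FPKM in WT DMSO. It was separate in all 3 groups, at -0.55 ± 0.04 for CKO Tu over WT Tu and -0.41 ± 0.04 for WT Tu over WT DMSO on the log2 scale (SE, limma adjusted p = 3.4e-05 and 0.00015). Rrp9, a factor of early small subunit assembly, fell by 0.66 ± 0.10, Rrs1, which brings in the 5S particle, by 0.55 ± 0.09, and Dkc1, the X-linked rRNA pseudouridine synthase, by 0.53 ± 0.08 in CKO Tu over WT Tu (SE, limma adjusted p = 0.0013, 0.0015 and 0.00079). Sbds and Gnl3 were the 2 that were higher, and the Gnl3 call was lost without any of 5 libraries (limma adjusted p of 0.062 to 0.1). In WT Tu over WT DMSO 13 of the 52 rose and 3 fell, where 17.7% and 15.9% of all genes did, with a median log2 change of 0.07, and Ltv1, a factor of small subunit export, rose by 0.43 ± 0.05 (SE, limma adjusted p = 0.0004).

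Genes of RNA polymerase I and of its factors were measured as mRNA. Of 16, 4 were lower and 2 higher in CKO Tu over WT Tu, where 19.6% and 18.7% of all genes were. In WT Tu over WT DMSO 3 were lower and 2 higher, where 15.9% and 17.7% of all genes were, so the counts lay near those of all genes. Myc, which drives ribosome production, had 97.5, 97.7 and 99.2 FPKM in CKO Tu, against 173, 161 and 172 FPKM in WT Tu and 190, 188 and 191 FPKM in WT DMSO. CKO Tu was far below the others (log2 change -0.78 ± 0.05 over WT Tu, SE, limma adjusted p = 7e-06). Cd3eap, a polymerase I subunit, had 4.17, 7.67 and 7.99 FPKM in WT Tu, against 17.9, 18.9 and 18.6 FPKM in WT DMSO (log2 change -1.40 ± 0.19, SE, limma adjusted p = 0.00073). Taf1a and Polr1c rose by 0.46 ± 0.08 and 0.44 ± 0.06 in CKO Tu over WT Tu (SE, limma adjusted p = 0.0018 and 0.00054).

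Other genes listed for transcripts with a TOP tract, mostly translation genes, were counted next. The list also holds Hnrnpa1 and the noncoding snoRNA host genes Gas5, Snhg1 and Snhg8. Rack1 is counted both here and among the genes that rescue stalled ribosomes. Of 21, 9 were lower and 0 higher in CKO Tu over WT Tu, where 19.6% and 18.7% of all genes were, with a median log2 change of -0.20, and 1 was higher without WT Tu replicate 1. Pabpc1, the poly(A) binding protein, had 203, 211 and 215 FPKM in CKO Tu, against 311, 279 and 278 FPKM in WT Tu (log2 change -0.46 ± 0.06, SE, limma adjusted p = 0.00041). Rack1, a scaffold on the small subunit, had 159, 164 and 169 FPKM in CKO Tu, against 245, 207 and 212 FPKM in WT Tu (log2 change -0.43 ± 0.07, SE, limma adjusted p = 0.002). In WT Tu over WT DMSO 4 rose and 2 fell, where 17.7% and 15.9% of all genes did, and the host gene of snoRNAs Snhg1 rose by 0.55 ± 0.11 (SE, limma adjusted p = 0.0052).

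A list of 9 genes was drawn up around the conjugation of UFM1 to Rpl26 on ER-bound ribosomes. It also holds proteases of UFM1, such as Ufsp2, and the reductase gene Cyb5r4, which is no conjugation enzyme. Of the 9, 6 rose and 0 fell in WT Tu over WT DMSO, with a median log2 change of 0.39. Of all genes, 17.7% were higher. Ufl1, its ligase, had 20.9, 16.2 and 16.8 FPKM in WT Tu, against 7.62, 7.18 and 6.83 FPKM in WT DMSO (log2 change 1.20 ± 0.09, SE, limma adjusted p = 2.2e-05). Cdk5rap3, an adaptor of the ligase, rose by 1.11 ± 0.10, and Ufm1 itself by 0.87 ± 0.06 (SE, limma adjusted p = 8.3e-05 and 1.1e-05). In CKO Tu over WT Tu 2 were higher and 2 lower, where 18.7% and 19.6% of all genes were, all by less than 0.4 on the log2 scale. These 4 calls, Cdk5rap3, Ufsp2, Ufm1 and Cyb5r4, were each lost without CKO Tu replicate 2 (limma adjusted p = 0.082, 0.067, 0.068 and 0.1).

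Of 18 genes that rescue stalled ribosomes, 9 rose and 2 fell in WT Tu over WT DMSO, where 17.7% and 15.9% of all genes did. Ascc3, the helicase that splits collided ribosomes, had 22.2, 15.8 and 16 FPKM in WT Tu, against 5.87, 6.55 and 5.89 FPKM in WT DMSO (log2 change 1.41 ± 0.12, SE, limma adjusted p = 3.7e-05). Map3k20, the kinase that senses collisions, had 2.06, 2.39 and 1.88 FPKM in WT Tu, against 4.06, 3.31 and 3.61 FPKM in WT DMSO (log2 change -0.58 ± 0.10, SE, limma adjusted p = 0.0025). In CKO Tu over WT Tu 5 were lower, where 19.6% of all genes were, and 2 were higher, where 18.7% were, Map3k20 and Tcf25, a partner of the ligase for stalled chains, at 0.43 ± 0.10 and 0.47 ± 0.05 (SE, limma adjusted p = 0.0096 and 0.00018).

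Among 16 S6 kinases and regulators of TOP mRNAs, 13 were tested. In CKO Tu over WT Tu 1 was higher and 1 lower, where 18.7% and 19.6% of all genes were. Mtor had 12.2, 11.4 and 12.4 FPKM in CKO Tu, against 7.58, 7.64 and 7.73 FPKM in WT Tu, and was the 1 gene higher (log2 change 0.59 ± 0.08, SE, limma adjusted p = 0.0008). Larp1 was the 1 gene lower, at -0.16 ± 0.05 (SE, limma adjusted p = 0.041), a call lost without any library of CKO Tu, WT Tu replicate 2 or 3 or WT DMSO replicate 2 or 3 (limma adjusted p of 0.054 to 0.14). In WT Tu over WT DMSO 3 rose and 2 fell, where 17.7% and 15.9% of all genes did. Rptor, the mTORC1 subunit that binds substrates, had 5.10, 5.19 and 5.51 FPKM in WT Tu, against 8.44, 8.85 and 9.06 FPKM in WT DMSO (log2 change -0.64 ± 0.06, SE, limma adjusted p = 5.5e-05). Rps6kb1, the S6 kinase that acts on Rps6, had 6.57, 5.37 and 5.93 FPKM in WT Tu, against 4.71, 4.57 and 4.19 FPKM in WT DMSO (log2 change 0.34 ± 0.08, SE, limma adjusted p = 0.014), not called when WT DMSO replicate 3 was left out (limma adjusted p = 0.054).

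**Figure D5:**
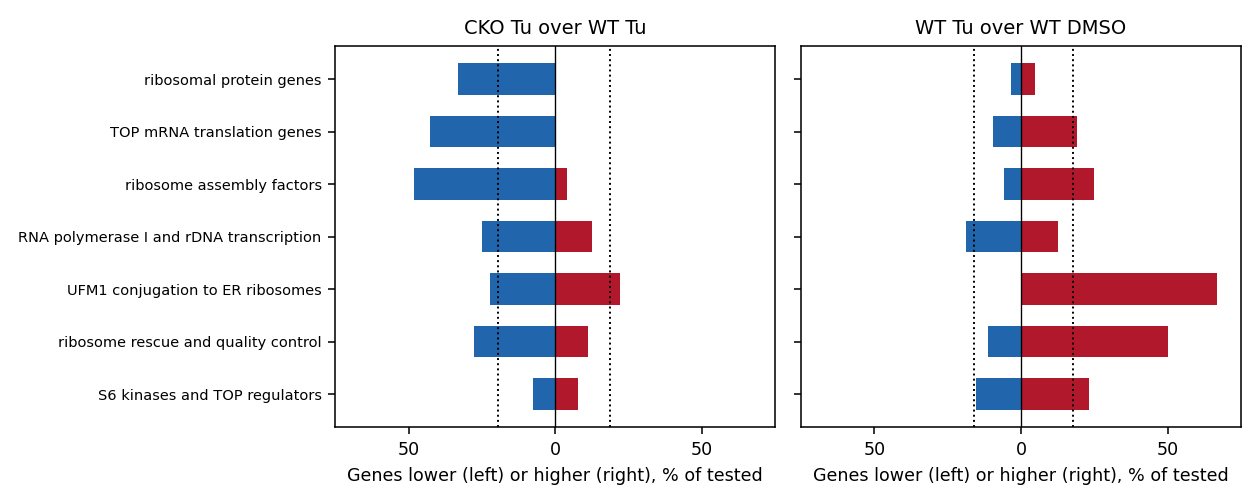
Percent of tested genes of each list that were lower (blue, to the left) or higher (red, to the right) by limma at adjusted p below 0.05 in CKO Tu over WT Tu (left panel) and WT Tu over WT DMSO (right panel), with the shares of all genes as dotted lines. Of the ribosomal protein genes 33.3% lie to the left and none to the right in CKO Tu over WT Tu, while 3.45% and 4.60% do in WT Tu over WT DMSO.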

How the data were processed

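The authors deposited FPKM for 54532 genes in 9 libraries together with each gene's length. The submitters' processing notes name HISAT2 2.2.1, featureCounts 1.5.0-p3 and the build mm10. The annotation release, the strand setting and the treatment of fragments that match several places are not given in the sources used here. Multiplied by gene length, 100% of values were whole numbers of fragments in each library, to within 0.001.

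The test took in 11858 genes, those reaching FPKM of 1 in 3 or more libraries. One limma model (3.58.1, R 4.3.3) of log2(FPKM + 1) held the 9 libraries and 3 group means, with the spread moderated along the level, two-sided p-values and Benjamini-Hochberg adjustment over all genes tested and a threshold of 0.05. Errors are SE from limma. Alternatives were a pseudocount of 0.1, no filter or a filter at FPKM of 5, other scalings, fits of only 2 groups, a block for replicate number, moderation without the trend, library weights, voom on recovered fragments with TMM scaling, removal of lowess trends (span 0.3) on gene length or GC content, and each library left out. On simulated data for CKO Tu over WT Tu, with 11114 genes run, the model called 2.38%, 33.3%, 94.4% and 100% of genes changed by 0.3, 0.5, 1 and 2 (log2), and 0.0912% of unchanged genes were called. The simulation changed only 147 genes and set the same spread for every gene, so these shares do not carry over to the measured genes.

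The gene lists were ribosomal protein genes, TOP mRNA translation genes, ribosome assembly factors, RNA polymerase I genes, UFM1 conjugation, ribosome rescue, and S6 kinases with TOP regulators. Members and lists were chosen with earlier results of these data known. Members named were the 6 with the largest called change per direction and comparison, paralogue pairs, members with known special roles, the highest and lowest by level, those called in opposite directions and the X-linked ones, and from each other list up to 4 called genes with the largest change. Rpl9, Rpl23a, Rpl28, Rps12, Rps12-ps3, Rpl34 and Sbds were named after their values were seen. Transcript windows and exon overlaps came from a GENCODE annotation of GRCm38, whose gene coordinates were identical to the file's for 98.3% of 54409 shared genes, and promoters came from RefSeq on GRCm38.p6. Some genes that these rules name are not reported here.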

Additional observations from a re-analysis of the deposited data

How the results depend on the processing

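In CKO Tu over WT Tu the count of ribosomal protein genes called lower (29) was between 23 and 49 when a library was left out, and the count higher (0) stayed at 0, with 1 by voom on recovered fragments. With a library left out, 14.9% to 21.2% of all genes were lower and 13.7% to 20% higher. By voom 19.7% of all genes were higher. In WT Tu over WT DMSO the count higher (4) was 2 without a filter, with only the groups compared and after quantile or upper-quartile scaling, 1 with total-fragment scaling, 11 with a weight per library, 8 with voom, 10 with the gene length trend removed and 7 with the GC trend removed, and 2 to 10 with a library left out. The share of all genes higher was 6.35% without a filter and 15% with only the groups compared. It was 16%, 14.7% and 12.1% with quantile, upper-quartile and total-fragment scaling. It was 20.1% with weights, 18.9% with voom, 18.4% and 17.4% with the length and GC trends removed, and 14.1% to 17.6% with a library left out. The count lower (3) was 10 with upper-quartile scaling, 17 with quantile normalization, 19 with total-fragment scaling, 0 with only the groups compared, 5 with a weight per library and 7 with voom, and 0 to 7 with a library left out. In the same order, 20%, 18.2%, 26.2%, 12.6%, 17.5% and 17.3% of all genes were lower, and 11.3% to 14.9% with a library left out. In CKO Tu over WT DMSO the count higher (3) was 5 with only the groups compared, with a weight per library and with the gene length trend removed, and 1 to 5 with a library left out, and the count lower (30) was 53 with only the groups compared and 20 to 54 with a library left out, 54 without WT Tu replicate 1. In the same order, 28.4%, 30.3% and 25.7% of all genes were higher, and 21% to 28.6% with a library left out. Of all genes 27.9% were lower with only the groups compared, and 20.3% to 28.1% with a library left out. Signs turned, past the threshold on 1 side, for Rpl11 and Rpl36a in CKO Tu over WT Tu when WT Tu replicate 1 was left out, with leave-one-out values of -0.19 to 0.28 for Rpl11 and -0.20 to 0.11 for Rpl36a, and for Rps6ka4 in the same comparison with the GC trend removed (-0.21). The causes were not tested. Replicate numbers are shared between groups, but the deviations of libraries with the same number correlated by -0.097 to 0.0208. No pairing by number was seen, though 3 libraries per group cannot exclude it. With the replicate block, 28 members were lower and 0 higher in CKO Tu over WT Tu, where 18.4% and 17.4% of all genes were. In WT Tu over WT DMSO 3 were lower and 3 higher, where 14.5% and 16.7% of all genes were. In CKO Tu over WT DMSO 26 were lower and 3 higher, where 23.4% and 24.5% of all genes were. The simulation seldom called changes of 0.3 on the log2 scale, but its spread was set and not taken from these data. Among the 29 members called lower in CKO Tu over WT Tu, the median change was -0.31. The change nearest 0 among them was -0.20. With 3 libraries per group, a member without a call is not shown to be level.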
